A study of Homo sapiens with 8 samples.

Results

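MSP2 is 1 of 3 mesenchymal subpopulations of the HMLE line, and its gene expression was set here against that of the other two, MSP1 and MSP3. The comparison held 2 MSP2 arrays against 4 arrays, MSP1 a and b and MSP3 a and b, of 8 arrays in the whole series. HMLE is an established line of immortalized human mammary epithelial cells, and every group was cultured in the same mammary epithelial growth medium. The remaining 2 arrays held CD24hi cells of the line, sorted for the epithelial surface protein CD24, and entered no fit. The labels give no treatment and no account of how MSP1, MSP2 and MSP3 were obtained or whether each is a single clone. Nor do they say whether a and b are independent cultures, and the p-values below cover the spread among the arrays alone, which may be technical. Members of a pair are called a and b, as in the labels.

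The epithelial-mesenchymal transition is a switch in which cells lose E-cadherin junctions and the regulators that maintain them, and gain a spindle shape, vimentin, N-cadherin and a collagen-rich matrix. It is driven by repressors such as ZEB1, and mammary lines can hold cells on both sides of it. The question addressed by the comparison was how far subpopulations on the mesenchymal side of the same line differ from each other.

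The label of a mesenchymal population held for the MSP2 arrays. Of 8 epithelial markers, CDH1 (E-cadherin), EPCAM, CDH3, ESRP1, RAB25 and TP63 lay under 32 signal units on all 6 MSP arrays, the range in which signals were treated as dim. The other two, the basal keratins KRT5 and KRT14, were above it. The summed signal of all 8 was 5003 and 3270 on MSP2 a and b, 2636 and 2490 on MSP1 and 5312 and 3291 on MSP3, against 38500 and 26730 on CD24hi. All 8 mesenchymal markers were above 32 on each MSP array. Each array had the same scaling, with a median signal between 17.4 and 19 on the MSP arrays and a 3′ to 5′ ratio of ACTB between 1.13 and 1.25. The correlation of log2 signals ran from 0.962 to 0.985 between arrays of the same letter, and was 0.947, 0.970 and 0.944 between a and b of MSP2, MSP1 and MSP3. For MSP2 and MSP3 every array of the same letter was thus closer than the partner array, while MSP1 a was closer to MSP1 b than to MSP2 a. The letter was kept as a block in the fit.

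Few probe sets were called between MSP2 and the other mesenchymal cells, and the widest differences were rises. With 2 MSP2 arrays, few calls do not show that few genes differ. Of 18506 probe sets with a mean signal of 64 or more in MSP2 or in the other 4 arrays, limma with the letter as a block called 434 (2.35%) with a threshold of 0.05 on the Benjamini-Hochberg adjusted p, 273 higher in MSP2 (1.48%) and 161 lower (0.87%). Against MSP1 alone it called 485 (2.62%), 352 higher (1.9%) and 133 lower (0.719%), and against MSP3 alone 242 (1.31%), 143 higher (0.773%) and 99 lower (0.535%). These comparisons share the MSP2 arrays. The counts rest on the block and on the filter: without the block limma called 1 probe set, with the CD24hi arrays in the fit 0 and without the filter 0. An unadjusted p under 0.05 was given to 3022 probe sets with the block (16.3%), to 909 without it (4.91%), to 555 with the CD24hi arrays (3%) and to 4269 of 54613 without the filter (7.82%). Leaving out 1 array gave between 86 calls (without MSP2 a) and 1194 calls (without MSP1 b). A plainer count used no model: on 60 probe sets (0.324%) both MSP2 arrays lay at least 2-fold outside all 4 others, 57 higher (0.308%) and 3 lower (0.0162%), with signals under 32 raised to 32. All 60 were also called.

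Gene names were known for part of the array, and 3942 named genes were tested, each through its brightest probe set. Of these, 140 were called (3.55%), 81 higher in MSP2 (2.05%) and 59 lower (1.5%). Against MSP1 alone 140 were called (3.55%), 97 higher (2.46%) and 43 lower (1.09%), and against MSP3 alone 76 (1.93%), 40 higher (1.01%) and 36 lower (0.913%). Both MSP2 arrays lay at least 2-fold outside the 4 others for 15 named genes (0.381%), 13 higher (0.33%) and 2 lower (0.0507%), and outside them by any gap, with dim signals raised to 32, for 589 (14.9%), 305 higher (7.74%) and 284 lower (7.2%). Among 3740 genes bright on both sides, 57 were higher and 35 lower. The other 24 higher and 24 lower genes were bright on one side alone, so they had to differ to be tested. The median log2 change over all named genes was 0.0123. The counts of called members of gene lists given below stand against these shares, 2.05% higher and 1.5% lower, at which a list of 10 to 20 genes holds few calls or none, and nothing is read from a list with 1 call or none. Below, a change is the log2 difference of MSP2 minus the mean of MSP1 and MSP3 ± SE of that fit, p-values are limma's, adjusted over all 18506 probe sets, and signals are linear array units given for a and b in turn.

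**Figure D1:**
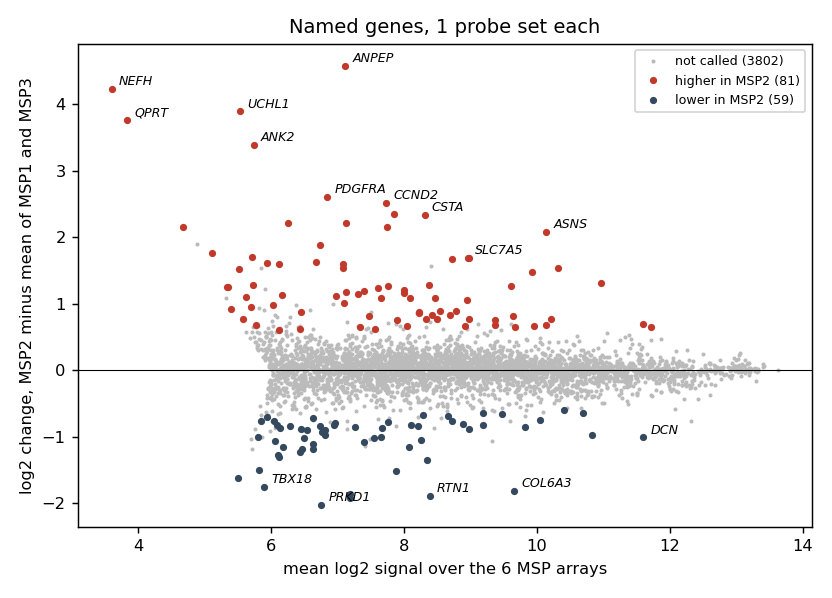
Log2 change in MSP2 (vertical axis) against the mean log2 signal over the 6 MSP arrays (horizontal axis) for 3942 named genes, with 81 genes called higher in red, 59 called lower in dark blue and the rest in grey. The widest changes are rises of dim to moderately bright genes, up to 4.58 for ANPEP, while the falls end at -2.03 for PRKD1.

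The widest rise among named genes was that of ANPEP, which encodes aminopeptidase N, the cell surface protease CD13. Its signal was 1086 and 1216 on MSP2, against 39.1 and 111 on MSP1 and 21.9 and 55.9 on MSP3, or at least 21.8-fold higher with signals under 32 raised to 32, as in all folds given as at least (log2 change 4.58 ± 0.27, adjusted p = 0.00127). No array of another subpopulation came near the MSP2 pair. Without MSP2 a the change was 3.95 and without MSP2 b it was 5.21, both called. ANK2, which encodes ankyrin-B, an adaptor between membrane proteins and the spectrin skeleton, had 261 and 250 on MSP2, against 12.3 and 44.2 on MSP1 and 16.6 and 38.6 on MSP3. It was at least 7.03-fold higher (3.39 ± 0.34, adjusted p = 0.00572), with 2.60 without MSP2 a and 4.19 without MSP2 b.

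UCHL1 and NEFH were also among the widest rises, from signals that were dim on some or all of the other arrays. UCHL1, a deubiquitinating enzyme abundant in neurons, had 264 and 298 on MSP2, 3.66 and 11.8 on MSP1 and 48.7 and 59.95 on MSP3. All groups were apart, and MSP2 was at least 6.75-fold above the mean of the other two (3.90 ± 0.30, adjusted p = 0.00228). NEFH, the heavy neurofilament subunit, had 69.5 and 106 on MSP2 and at most 13.8 on the other 4 arrays, all of them dim, and was at least 2.69-fold higher (adjusted p = 0.00689, from a fit to signals within the dim range). Its call was lost without MSP2 a. NEFH was tested through MSP2 alone, so it had to differ to be tested. The same held for ANPEP, ANK2, UCHL1, PDGFRA, ARAP2, ABCB6, DSC3 and HLA-DPB1. CD24hi cells also held the transcripts of UCHL1, at 150 and 234, and of NEFH, at 100 and 98.0. RTN1, a reticulon of the endoplasmic reticulum that marks neuroendocrine cells, fell: it had 171 and 114 on MSP2, 873 and 781 on MSP1 and 446 and 233 on MSP3 (-1.89 ± 0.17, adjusted p = 0.00383). It was the sole called member of 11 tested genes of axon guidance and neural adhesion, whose median change was -0.273.

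CCND2, GULP1 and CSTA rose about as far as each other from a well measured level. CCND2, which encodes the G1 cyclin D2, had 665 and 697 on MSP2, against 134 and 145 on MSP1 and 128.3 and 79.9 on MSP3, 5.73-fold higher (2.52 ± 0.18, adjusted p = 0.0019). It was the only called gene of 11 cell cycle inhibitors and senescence genes tested. GULP1, an adaptor in the engulfment of dying cells, had 677 and 686 on MSP2, against 114 and 135 on MSP1 and 106 and 197 on MSP3 (2.35 ± 0.18, adjusted p = 0.00231), and its second probe set was called too, at 2.38. CSTA, the protease inhibitor cystatin A of keratinocytes, had 1275 and 689 on MSP2, against 184 and 134 on MSP1 and 283 and 167 on MSP3 (2.34 ± 0.13, adjusted p = 0.00127). For each of these genes both MSP2 arrays were above all 4 others by at least 2-fold, and the call was kept whichever array was left out.

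ARAP2, a GTPase-activating protein for Arf proteins, and ABCB6, a porphyrin transporter, rose by less. ARAP2 had 99.1 and 86.4 on MSP2 and between 23.5 and 42.6 on the others (1.52 ± 0.12, adjusted p = 0.00233). ABCB6 had 70.1 and 76.8 on MSP2 and between 27.7 and 33.0 on the others, at least 2.28-fold higher (1.26 ± 0.12, adjusted p = 0.00463), with the call lost without MSP2 a (1.30) or MSP2 b (1.21).

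**Figure D2:**
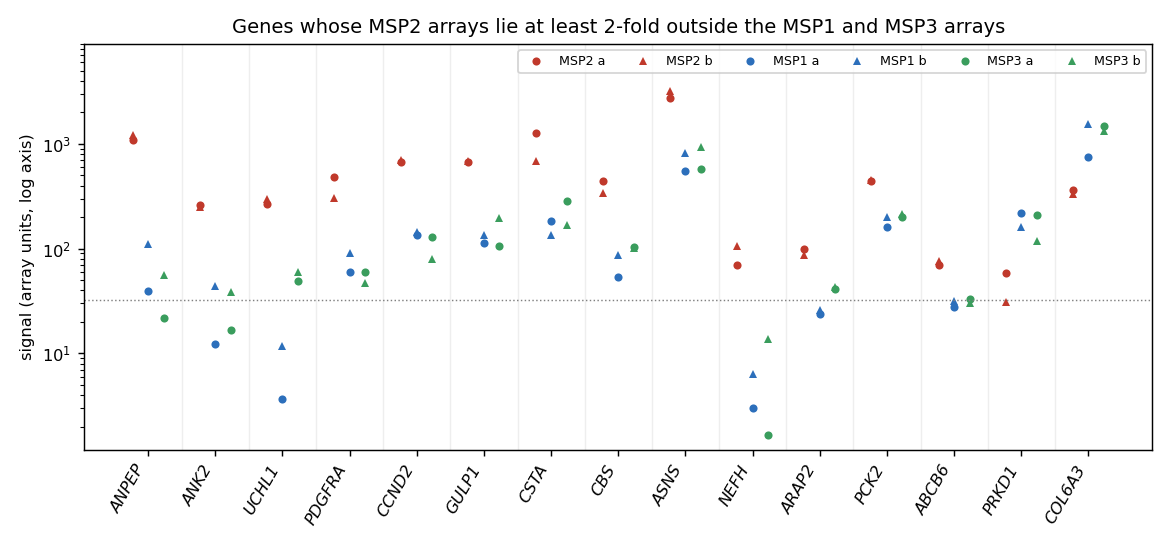
Signal on each of the 6 MSP arrays (vertical log axis, array units) for the 15 named genes whose MSP2 arrays were called and at least 2-fold outside the 4 others, with MSP2 left, MSP1 in the middle and MSP3 right, circles for letter a and triangles for letter b. For 13 genes the MSP2 pair lies above the rest and for PRKD1 and COL6A3 below; the dotted line marks 32 units, under which signals are dim.

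Of the list of the unfolded protein response and amino acid stress, ASNS, SLC7A5, PHGDH and SLC3A2 rose in MSP2 and the other 9 tested genes did not pass the test. When amino acids run short, or unfolded proteins gather in the endoplasmic reticulum, the transcription factor ATF4 induces enzymes and transporters that make and import amino acids, along with aminoacyl-tRNA synthetases, which load them onto tRNA. Of the 13 tested genes 4 were higher and 0 lower, or 4 of the 12 bright on both sides, against 2.05% higher and 1.5% lower of all named genes, and the median change over the 13 was 0.470, against 0.0123. The number of rises was 2 to 5 when 1 array was left out, and 0 without the letter block.

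ASNS, asparagine synthetase, had 2767 and 3177 on MSP2, against 547 and 816 on MSP1 and 571 and 927 on MSP3, 4.25-fold higher (2.09 ± 0.14, adjusted p = 0.00165). PHGDH, the first enzyme of serine synthesis, had 1573 and 1231 on MSP2, against 539 and 557 on MSP1 and 657 and 573 on MSP3 (1.26 ± 0.12, adjusted p = 0.00529), and its call was lost without MSP2 a (1.12). Both MSP2 arrays stood above all the others for both enzymes. SLC7A5 and SLC3A2 encode the light and heavy chains of a transporter of large neutral amino acids, and for both the b arrays were brighter than the a arrays in each group. SLC7A5 had 620 and 1920 on MSP2, against 191 and 553 on MSP1 and 184 and 659 on MSP3, so that MSP2 was higher within each letter (1.70 ± 0.12, adjusted p = 0.00165) while the pooled values overlapped. SLC3A2 had 480 and 1084 on MSP2, 307 and 551 on MSP1 and 316 and 587 on MSP3 (0.78 ± 0.12, adjusted p = 0.0278). That call was lost without MSP2 a, MSP2 b, MSP3 a or MSP3 b, at changes between 0.62 and 0.93.

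The remaining 9 members did not pass the test. PSPH, the last enzyme of serine synthesis, had 461 and 409 on MSP2, above all the others (261 and 284 on MSP1, 173 and 252 on MSP3), at a change of 0.86 and an adjusted p of 0.0508. ATF4 itself had 4022 and 3074 on MSP2, 3283 and 2550 on MSP1 and 3260 and 2312 on MSP3 (0.32 ± 0.11, adjusted p = 0.215). The chaperone and unfolded protein response genes XBP1, HSP90B1 and DNAJB9 had changes of 0.13, -0.21 and -0.35, and STC2 had -0.45.

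**Figure D3:**
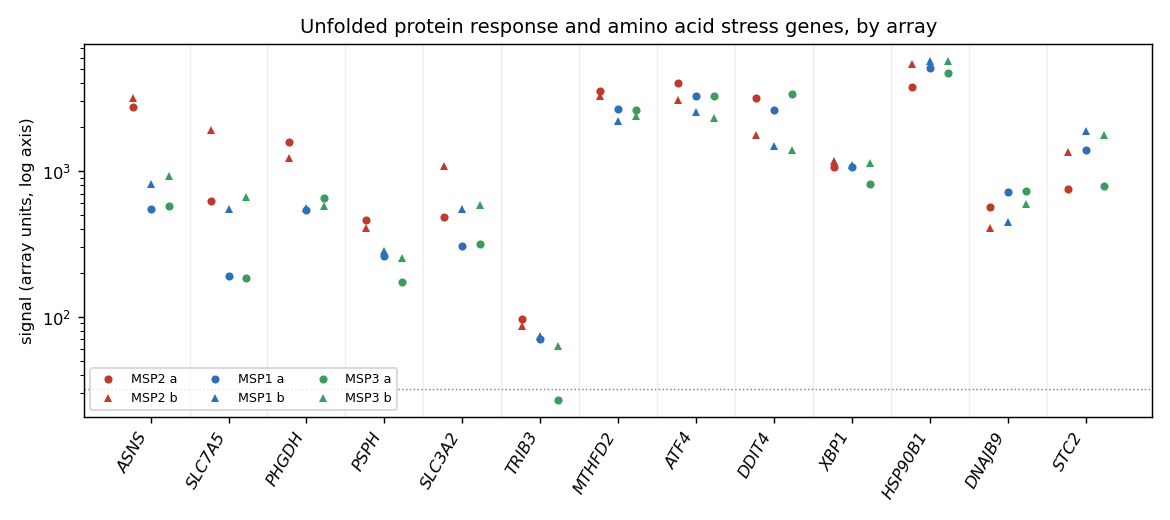
Signal on each MSP array (vertical log axis, array units) for the 13 tested genes of the unfolded protein response and amino acid stress list, ordered by their change, with MSP2 left, MSP1 in the middle and MSP3 right, circles for letter a and triangles for letter b. The enzymes and transporters at the left end, ASNS to MTHFD2, lie higher in MSP2 within each letter, while the chaperone genes at the right end do not; the dotted line marks 32 units.

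Other called genes had related roles, and the aminoacyl-tRNA synthetases were looked at after these values had been seen. CBS, cystathionine beta-synthase, which turns homocysteine towards cysteine, had 446 and 337 on MSP2, against 53.7 and 86.1 on MSP1 and 103 and 101 on MSP3, 4.65-fold higher (2.22 ± 0.21, adjusted p = 0.00464). PCK2, the mitochondrial phosphoenolpyruvate carboxykinase, had 440 and 449 on MSP2, against 161 and 199 on MSP1 and 201 and 214 on MSP3 (1.21 ± 0.12, adjusted p = 0.00464), with the call lost without MSP2 a (1.13) or MSP2 b (1.29). Both MSP2 arrays were at least 2-fold above the rest for both genes. Of 13 tested cytosolic aminoacyl-tRNA synthetases, AARS1, CARS1 and WARS1 rose, 0 fell, and the median change was 0.276. AARS1 had 1261 and 1444 on MSP2, 766 and 924 on MSP1 and 783 and 944 on MSP3 (0.67 ± 0.11, adjusted p = 0.0297). WARS1 had 963 and 916 on MSP2, 554 and 550 on MSP1 and 501 and 627 on MSP3 (0.76 ± 0.13, adjusted p = 0.0354), and CARS1 changed by 0.67 ± 0.12 (adjusted p = 0.0415). The family was not uniform: HARS1 had 1035 and 1375 on MSP2, 1506 and 1610 on MSP1 and 1310 and 1614 on MSP3, at a change of -0.34 (adjusted p = 0.23). Calls of AARS1 and CARS1 were lost without either MSP2 or either MSP3 array (0.63 to 0.70 and 0.62 to 0.73), and that of WARS1 without MSP2 a, MSP2 b or MSP3 a (0.64 to 0.87).

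ATF4 binds a composite element with the letters TGATGNAA, so the promoters of these genes are shown, from RefSeq on build GRCh38.p14, as the 250 bases before the start of each gene, with a match on either strand in capitals. ASNS lies on the minus strand at chr7:97872409-97872658, AARS1 on the minus strand at chr16:70289507-70289756 and PHGDH, shown as a gene that rose without a match, on the plus strand at chr1:119711684-119711933.
ASNS: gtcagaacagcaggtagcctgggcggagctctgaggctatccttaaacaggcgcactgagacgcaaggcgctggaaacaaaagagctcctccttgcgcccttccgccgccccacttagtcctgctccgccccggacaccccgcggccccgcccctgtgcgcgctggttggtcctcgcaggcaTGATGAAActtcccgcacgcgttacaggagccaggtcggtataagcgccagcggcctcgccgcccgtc
AARS1: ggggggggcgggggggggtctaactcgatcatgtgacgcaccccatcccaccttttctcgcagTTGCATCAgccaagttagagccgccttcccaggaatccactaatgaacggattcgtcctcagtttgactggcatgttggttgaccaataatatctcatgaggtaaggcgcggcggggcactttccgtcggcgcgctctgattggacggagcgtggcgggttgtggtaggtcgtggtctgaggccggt
PHGDH: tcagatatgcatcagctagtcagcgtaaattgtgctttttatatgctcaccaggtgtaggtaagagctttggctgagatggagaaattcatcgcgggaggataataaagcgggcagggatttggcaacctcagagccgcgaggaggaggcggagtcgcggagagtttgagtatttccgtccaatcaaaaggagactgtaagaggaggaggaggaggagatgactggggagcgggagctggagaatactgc
In ASNS the match begins at base -68 relative to the start and reads in the direction of the gene. In AARS1 it begins at base -187 and lies on the opposite strand. A match was present in 870 of 27305 RefSeq promoters (3.19%) and in 41 of 3132 tested named genes with a promoter (1.31%). Among genes called higher in MSP2, 3 of 52 held one (5.77%), namely ASNS, AARS1 and SLC1A3, and among genes called lower 2 of 42 (4.76%). Of the amino acid stress list they stood in 4 of 23 promoters (17.4%), in 1 of 12 of tested members (8.33%) and in 1 of the 4 called, ASNS. Binding was not measured.

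PDGFRA, PDGFRB, PDGFRL and DDR2 were called higher in MSP2. PDGFRA and PDGFRB are the receptors of platelet-derived growth factors, and DDR2 is a receptor tyrosine kinase that binds fibrillar collagen. Of 16 tested ligands and receptors of the PDGF, FGF, EGF and HGF families, 4 were higher (these and PDGFRL, a PDGF receptor-like protein) and 0 lower, or 3 of 15 bright on both sides, against 2.05% and 1.5% of all named genes, while the median change was -0.083. PDGFRA had 487 and 302 on MSP2, against 60.4 and 91.6 on MSP1 and 60.4 and 46.7 on MSP3, 6.1-fold higher (2.61 ± 0.25, adjusted p = 0.00464). It was dim in CD24hi, at 8.44 and 1.72. DDR2 had 400 and 300 on MSP2, 122 and 147 on MSP1 and 153 and 167 on MSP3 (1.24 ± 0.16, adjusted p = 0.014), and its other 2 probe sets changed by 1.87 and 1.81. PDGFRB differed strongly by letter, with 571 and 149 on MSP2, 177 and 70.0 on MSP1 and 268 and 79.6 on MSP3 (1.19 ± 0.15, adjusted p = 0.0116).

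The DDR2 call was lost without MSP2 a (0.93), and the PDGFRB call without MSP2 a (1.00) or MSP2 b (1.39). PDGFRL changed by 0.82 ± 0.12 (adjusted p = 0.0217), a call lost without either MSP2 or either MSP3 array (0.71 to 0.94). EGFR had 1175 and 2169 on MSP2, 1206 and 2072 on MSP1 and 1133 and 1998 on MSP3, a change of 0.05, and MET, AXL and NRG1 changed by -0.19, -0.22 and -0.08. IGF2, a growth factor of fetal and mesenchymal tissue, rose to 257 and 316 on MSP2, against 71.3 and 73.8 on MSP1 and 110 and 134 on MSP3 (1.60 ± 0.12, adjusted p = 0.00182). It was the sole call among 12 tested genes of the IGF axis.

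Of 11 collagens tested, 1 was called lower and 0 higher, with a median change of 0.021 and a range from -1.816 to 1.905. The highest of these changes was thus not called. COL6A3, the alpha-3 chain of the beaded-filament collagen VI, had 363 and 335 on MSP2, against 746 and 1538 on MSP1 and 1487 and 1336 on MSP3, 3.52-fold lower (-1.82 ± 0.25, adjusted p = 0.0183). The call was lost without MSP2 a (-2.10) or MSP2 b (-1.54). Its partner COL6A2 had 246 and 145 on MSP2, 386 and 468 on MSP1 and 389 and 350 on MSP3, also below all others (-1.06 ± 0.20, adjusted p = 0.0576), whereas COL6A1 changed by -0.20 ± 0.19. The fibrillar chains COL1A1, COL1A2 and COL3A1, among the brightest genes of these cells, changed by 0.04, 0.16 and 0.26.

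Among 22 matrix glycoproteins and proteoglycans 1 rose and 1 fell (median change -0.135). DCN, the small proteoglycan decorin, which binds collagen and growth factors, had 2518 and 1493 on MSP2, against 3426 and 2726 on MSP1 and 6034 and 4134 on MSP3 (-1.01 ± 0.13, adjusted p = 0.0126). Of its other 4 probe sets, 3 changed by -1.12 to -1.36, and 1, with like signal in CD24hi cells, by -0.14. Against MSP1 alone its change was -0.66 (adjusted p = 0.0815) and against MSP3 alone -1.36 (adjusted p = 0.0113). MFAP2, a microfibril glycoprotein, rose, with 783 and 466 on MSP2, 237 and 162 on MSP1 and 456 and 214 on MSP3 (1.29 ± 0.14, adjusted p = 0.00774). The calls of DCN and MFAP2 were lost without MSP2 a (-1.17 and 1.32) or MSP2 b (-0.85 and 1.25). FN1, fibronectin, had 4581 and 3807 on MSP2, 4487 and 3831 on MSP1 and 6743 and 4895 on MSP3 (-0.22 ± 0.11, adjusted p = 0.397).

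Of 12 matrix proteases and inhibitors, MMP2, a gelatinase, and SERPINF1, the anti-angiogenic factor PEDF, rose and 0 fell. MMP2 had 1526 and 876 on MSP2, 930 and 570 on MSP1 and 852 and 412 on MSP3 (0.82 ± 0.12, adjusted p = 0.023). SERPINF1 had 1041 and 324 on MSP2, 381 and 170 on MSP1 and 528 and 164 on MSP3 (1.09 ± 0.15, adjusted p = 0.0155). Both were higher in MSP2 within each letter. The MMP2 call was lost without MSP2 a, MSP2 b or MSP3 b (0.74 to 0.85), and that of SERPINF1 without MSP2 a (0.96) or MSP2 b (1.21). SDC2, a transmembrane heparan sulfate proteoglycan outside these lists, had 2666 and 1391 on MSP2, 740 and 540 on MSP1 and 951 and 598 on MSP3 (1.48 ± 0.13, adjusted p = 0.00405; 1.29 without MSP2 a, not called).

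Of 18 tested components of TGF-beta signalling INHBA rose and BAMBI and LTBP2 fell, with a median change of -0.054. Of the 16 bright on both sides 0 rose and 1 fell, since INHBA was tested through MSP2 alone and BAMBI through the others alone. LTBP2, a microfibril protein related to the latent TGF-beta binding proteins, had 1420 and 935 on MSP2, 2297 and 1895 on MSP1 and 3042 and 1983 on MSP3 (-0.97 ± 0.12, adjusted p = 0.0128). BAMBI, a decoy receptor that dampens TGF-beta signals, had 42.2 and 28.9 on MSP2, 72.8 and 44.3 on MSP1 and 98.1 and 77.6 on MSP3 (-1.01 ± 0.12, adjusted p = 0.0113). INHBA, the beta-A subunit of activin, had 61.8 and 105 on MSP2, 24.1 and 42.6 on MSP1 and 48.8 and 59.1 on MSP3 (0.96 ± 0.15, adjusted p = 0.0256). For all 3 the MSP2 arrays were outside the 4 others. Calls were lost without MSP2 a for all 3 (-1.05, -1.02 and 1.06), and without MSP2 b for LTBP2 (-0.90) and BAMBI (-1.0006).

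Of 10 tested homeobox and developmental factors, 4 were lower in MSP2 and 0 higher, or 2 of the 8 bright on both sides, with a median change of -0.134. TBX18, a T-box factor of mesenchyme and pericytes, had 31.3 and 22.4 on MSP2, against 72.4 and 48.4 on MSP1 and 137 and 131 on MSP3, at least 2.78-fold lower (-1.75 ± 0.14, adjusted p = 0.00238). HOXB7 had 31.8 and 45.4 on MSP2, 51.9 and 56.8 on MSP1 and 158 and 166 on MSP3 (-1.30 ± 0.13, adjusted p = 0.00579), and its values in the separate comparisons were unequal, at -0.51 against MSP1 (adjusted p = 0.158) and -2.09 against MSP3 (adjusted p = 0.00383). SOX9, a factor of cartilage and of epithelial progenitors, had 308 and 282 on MSP2, 437 and 432 on MSP1 and 595 and 456 on MSP3 (-0.69 ± 0.12, adjusted p = 0.0433). NR2F1, the nuclear receptor COUP-TFI, had 1231 and 1212 on MSP2, 2330 and 1968 on MSP1 and 1736 and 1667 on MSP3 (-0.64 ± 0.11, adjusted p = 0.0406). HOXB7 lost its call without MSP2 a (-1.10), and SOX9 and NR2F1 without either MSP2 or either MSP3 array (-0.77 to -0.61 and -0.71 to -0.58). Of 11 tested transcription factors of the transition itself SOX9 was the sole call (median change 0.167). ZEB1 had 649 and 435 on MSP2, 397 and 453 on MSP1 and 354 and 419 on MSP3 (0.40 ± 0.19, adjusted p = 0.365), and ZEB2 and TWIST1 changed by -0.05 and 0.22.

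LHX9, a LIM-homeobox factor outside the list and chosen after its values were seen, was higher, with 103 and 59.0 on MSP2, 22.8 and 11.9 on MSP1 and 43.8 and 23.8 on MSP3, at least 2.25-fold (1.76 ± 0.11, adjusted p = 0.00139).

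The widest fall of all named genes was that of PRKD1, which encodes protein kinase D1. Its signal was 58.6 and 30.6 on MSP2, against 221 and 160 on MSP1 and 211 and 119 on MSP3, at least 3.98-fold lower (-2.03 ± 0.13, adjusted p = 0.00165), and the call was kept whichever array was left out. The MSP2 b value lay in the dim range. PRKD1, like TBX18 and HOXB7, was tested through the MSP1 and MSP3 arrays alone.

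Some epithelial genes were called higher in MSP2. Of 11 tested genes of epithelial adhesion and junctions 2 rose in the main comparison and 0 fell (DSC3 and PKP3, median change 0.116). Of 15 keratins and hemidesmosome genes 3 rose and 0 fell (KRT5 and LAMA3 among them, median change 0.107). Among members bright on both sides, 1 of 9 and 2 of 12 rose, against 2.05% of all named genes. DSC3 was tested through MSP2 alone. DSC3, a desmosomal cadherin of basal epithelium, had 130 and 103 on MSP2, against 22.6 and 21.5 on MSP1 and 57.9 and 55.6 on MSP3 (1.71 ± 0.12, adjusted p = 0.00165), so the groups were ordered without overlap. PKP3, a desmosomal plaque protein, had 113 and 118 on MSP2, 62.1 and 69.8 on MSP1 and 83.3 and 88.3 on MSP3 (0.62 ± 0.11, adjusted p = 0.0378). CD24hi had far more of both, with 2035 and 724 for DSC3 and 642 and 697 for PKP3.

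KRT5, a keratin of basal epithelial cells, had 528 and 289 on MSP2, 98.3 and 66.1 on MSP1 and 423 and 252 on MSP3. It rose in the main comparison (1.27 ± 0.12, adjusted p = 0.00433), by 2.28 against MSP1 (adjusted p = 0.00088), and by 0.26 against MSP3 (adjusted p = 0.501). LAMA3, a laminin chain of basement membranes, likewise had 61.1 and 110 on MSP2, 14.7 and 19.4 on MSP1 and 68.1 and 110 on MSP3, and CD24 had 87.3 and 129 on MSP2, 29.6 and 16.8 on MSP1 and 89.4 and 95.8 on MSP3. For these 3 genes the MSP2 values lay among those of MSP3 or near them, and MSP1 was the low group. CD24 changed by 1.22 ± 0.26 (adjusted p = 0.0742) in the main comparison and by 2.25 against MSP1 (adjusted p = 0.0159), and its second probe set by 1.17 (adjusted p = 0.0114). Calls were lost without MSP2 a for KRT5 (1.16) and LAMA3 (1.26) and without either MSP2 or either MSP3 array for PKP3 (0.59 to 0.65). As given above, the epithelial markers CDH1, EPCAM, CDH3, ESRP1, RAB25 and TP63 were dim on both MSP2 arrays. KRT5, KRT14 and CD24 itself were not.

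S100A4, a calcium-binding protein of fibroblasts, was the sole call among 11 classical mesenchymal markers, with 2024 and 414 on MSP2, 529 and 244 on MSP1 and 422 and 123 on MSP3 (1.68 ± 0.22, adjusted p = 0.0155; lost without MSP2 a, 1.26). VIM had 9917 and 9450 on MSP2, 8801 and 8002 on MSP1 and 11130 and 8277 on MSP3 (0.11 ± 0.12, adjusted p = 0.748). CDH2, N-cadherin, had 719 and 994 on MSP2, 588 and 903 on MSP1 and 792 and 1114 on MSP3 (0.03 ± 0.11), and CD44 had 997 and 1881 on MSP2, 1410 and 1877 on MSP1 and 1256 and 1980 on MSP3 (-0.23 ± 0.13). With 2 MSP2 arrays these misses do not show equal expression. Of 11 fibroblast markers 3 rose (PDGFRA, S100A4 and PDGFRB) and DCN fell. Of the 10 bright on both sides, 2 rose and 1 fell.

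Of the 34 gene lists examined, 12 had no called member, where 3.55% of all named genes were called. Among these were DNA replication and mitosis (0 of 26 tested, median change -0.014), sterol synthesis and uptake (0 of 17, -0.103), cytokines and chemokines (0 of 11, -0.052), contractile and smooth muscle genes (0 of 10, 0.063) and Wnt ligands, receptors and targets (0 of 9, 0.087). The brightest members of the uncalled lists changed by -0.37 (P4HA2), -0.33 (FHL2), 0.44 (FZD6), -0.44 (DKK1), -0.16 (NOTCH2), 0.67 (NOTCH3), -0.76 (PTX3), -0.13 (CD59), -0.06 (TYMS), 0.03 (SCD) and -0.03 (CD79A). PTX3 missed a call at an adjusted p of 0.0503, with both MSP2 arrays (3020 and 4263) below all the others. It was called lower against MSP1 alone (-0.88, adjusted p = 0.0472). Dimmer members could change more: in matrix crosslinking and processing, the list of P4HA2, the 11 tested genes ran from -0.372 to 1.575. Interferon response genes had 2 of 15 higher and 0 lower (median change 0.049), IFI44L (0.76 ± 0.13) and the antiviral membrane protein IFITM2 (0.69 ± 0.12). IFI44L had MSP1 as the low group, with 820.5 and 254 on MSP2, 390 and 91.2 on MSP1 and 774.5 and 189 on MSP3. Against MSP3 alone it changed by 0.25 (adjusted p = 0.551). Genes of oxidative stress and aldehyde detoxification had 1 of 20 higher, the quinone reductase NQO1, with 5213 and 3494 on MSP2, 3223 and 2286 on MSP1 and 2924 and 2245 on MSP3 (0.69 ± 0.11, adjusted p = 0.0293). The calls of IFI44L, IFITM2 and NQO1 were lost without either MSP2 or either MSP3 array (0.58 to 0.95, 0.63 to 0.75 and 0.63 to 0.76). Single rises came from the integrins (1 of 10 tested, median change -0.011), the Hedgehog pathway (1 of 2) and hypoxia and glycolysis (1 of 20, -0.094), each with 0 falls. ITGA10, a collagen-binding integrin chain, had 599 and 528 on MSP2, 303 and 358 on MSP1 and 312 and 252 on MSP3 (0.89 ± 0.14, adjusted p = 0.0309). GAS1, a Hedgehog co-receptor, had 829 and 535 on MSP2, 342 and 241 on MSP1 and 625 and 326 on MSP3 (0.89 ± 0.13, adjusted p = 0.022), with pooled values that overlapped. Both calls were lost without MSP2 a, MSP2 b or MSP3 b (0.80 to 0.96 and 0.79 to 0.93). NDRG1, a stress gene induced by low oxygen, had 440 and 457 on MSP2, 274 and 272 on MSP1 and 222 and 220 on MSP3 (0.87 ± 0.11, adjusted p = 0.0114; lost without MSP2 a or MSP2 b, 0.84 to 0.90). HLA-DPB1, an MHC class II chain, was called (lost without MSP2 a, 1.09) with MSP1 as the low group: it had 96.3 and 93.9 on MSP2, 13.2 and 16.5 on MSP1 and 92.9 and 118 on MSP3. Summed signals of 3 endothelial markers were 71.0 and 71.9 on MSP2, 96.6 and 87.1 on MSP1 and 93.9 and 64.1 on MSP3. Most of each sum was PECAM1, at 57.6 to 74.4 and so above 32 on every MSP array, while CDH5 and VWF were dim. The sum of 4 blood markers was at most 44.0 on any MSP array.

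**Figure D4:**
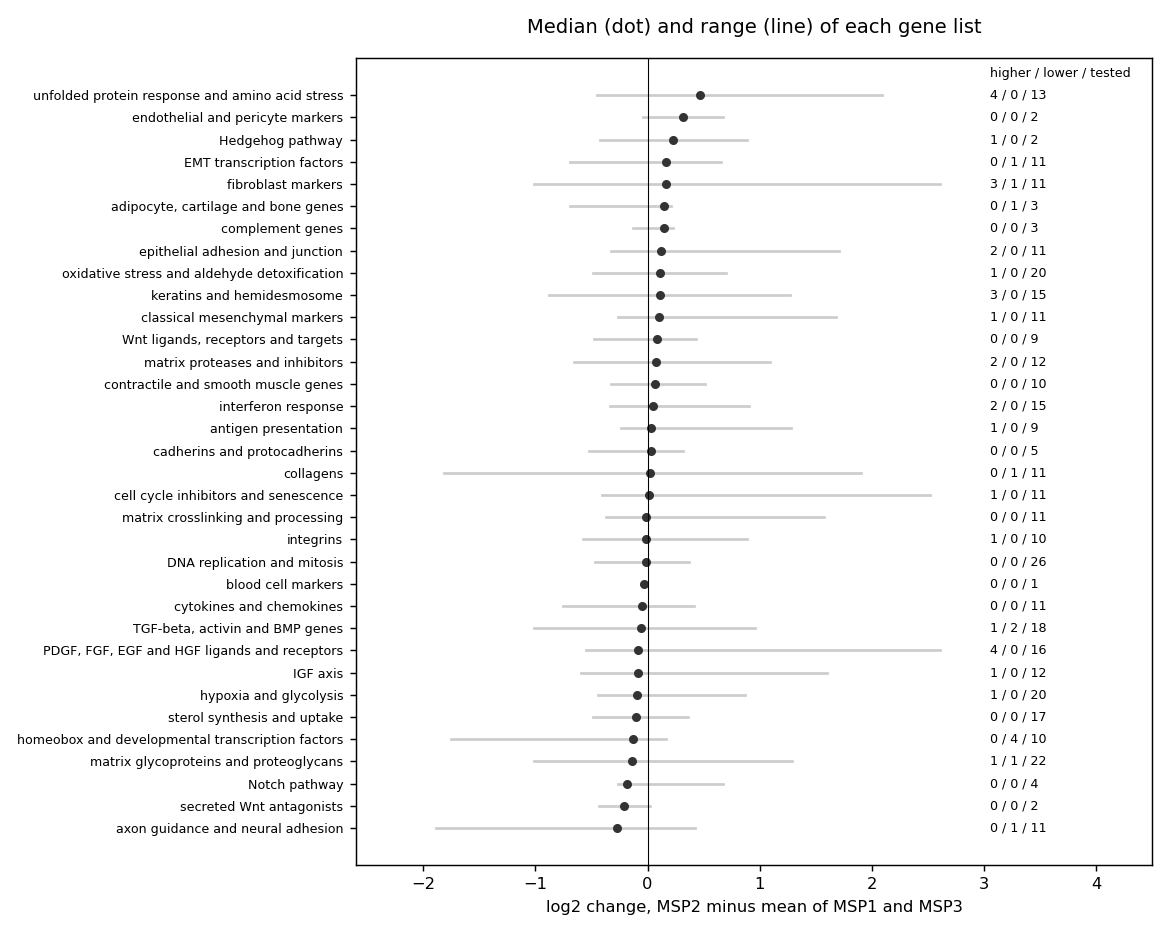
Log2 change in MSP2 for each of the 34 gene lists, with the median as a dot and the range of tested members as a line, and at the right the number called higher, called lower and tested. The unfolded protein response and amino acid stress list has the highest median of them, at 0.470, and several lists hold 3 tested genes or fewer.

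A pattern that no gene list held appeared when genes were placed by chromosome, with positions taken from the RefSeq table of assembly GRCh38.p14 and read only for which genes neighbour each other. Genes of chromosome 20 and of the distal parts of chromosomes 5 and 8 were shifted together in MSP2 relative to MSP1 and MSP3. Which side moved cannot be told from this difference. Set against CD24hi, the median of chromosome 20 was 0.129 in MSP2 and 0.372 in the mean of MSP1 and MSP3. The distal parts read 0.427 and 0.654 on chromosome 5 and -0.247 and -0.461 on chromosome 8. All named genes had 0.097 and 0.081. On chromosome 20 the median change over 89 genes was -0.272, and 81 of them (91%) were below 0. On chromosome 5 the 130 genes from NR2F1 to TRIM52 had a median of -0.265, 119 of them (91.5%) below 0, while the 79 genes before them had a median of 0.006. On chromosome 8 the 57 genes from DECR1 to ZNF252P had a median of 0.260, 49 of them (86%) above 0, while the 87 genes before them had 0.005. Cut into 141 windows of about 25 neighbouring genes, 8 windows had a median below -0.15, all 8 on chromosomes 5 and 20, and 2 had one above 0.15, both on chromosome 8. The other 125 windows, on the remaining chromosomes, ran from -0.128 to 0.115. The parts of chromosomes 5 and 8 were set as the windows with a median past these limits of -0.15 and 0.15. Their medians, their shares and the contrast with the genes before them therefore follow in part from that choice. Chromosome 20 was taken whole, but was also picked after its values were seen.

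Over each whole region the shifts were present on both MSP2 arrays and in both comparisons. The first window of the chromosome 5 part, the 26 genes from NR2F1 to LMNB1, was an exception, at -0.370 against MSP1 and -0.064 against MSP3. As the median deviation of an array from the mean of all 6, chromosome 20 read -0.185 and -0.191 on MSP2, 0.132 and 0.070 on MSP1 and 0.162 and 0.076 on MSP3. The distal part of chromosome 5 read -0.184 and -0.153 on MSP2, 0.132 and 0.086 on MSP1 and 0.076 and 0.064 on MSP3, and the distal part of chromosome 8 read 0.183 and 0.15 on MSP2, -0.039 and -0.137 on MSP1 and -0.079 and -0.047 on MSP3. Against MSP1 alone the medians were -0.273 for chromosome 20, -0.282 for the distal part of chromosome 5 and 0.252 for that of chromosome 8, and against MSP3 alone -0.277, -0.259 and 0.256. Within letter a they were -0.302, -0.281 and 0.214 and within letter b -0.241, -0.256 and 0.257. The change per gene was mostly too small for a call. On chromosome 20, 2 of 89 genes were called, BTBD3 (-0.88) and ADA (-0.85), both lower. In the distal part of chromosome 5, 5 of 130 genes were called lower and 1, PDGFRB, higher. The 5 falls were NR2F1, ABLIM3, SLC22A5, ANXA6 and CYFIP2 (-0.64 to -0.83). In the distal part of chromosome 8, 5 of 57 genes were called, all higher, namely SDC2, NDRG1 (0.87), EXT1 (0.68), TONSL (0.78) and CPSF1 (0.83). Of all named genes 2.05% were called higher and 1.5% lower, and nothing is read from the 2 calls on chromosome 20. The windows were drawn after the values had been seen, neighbouring genes are not independent of each other, and no test is given. DNA was not measured on these arrays.

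**Figure D5:**
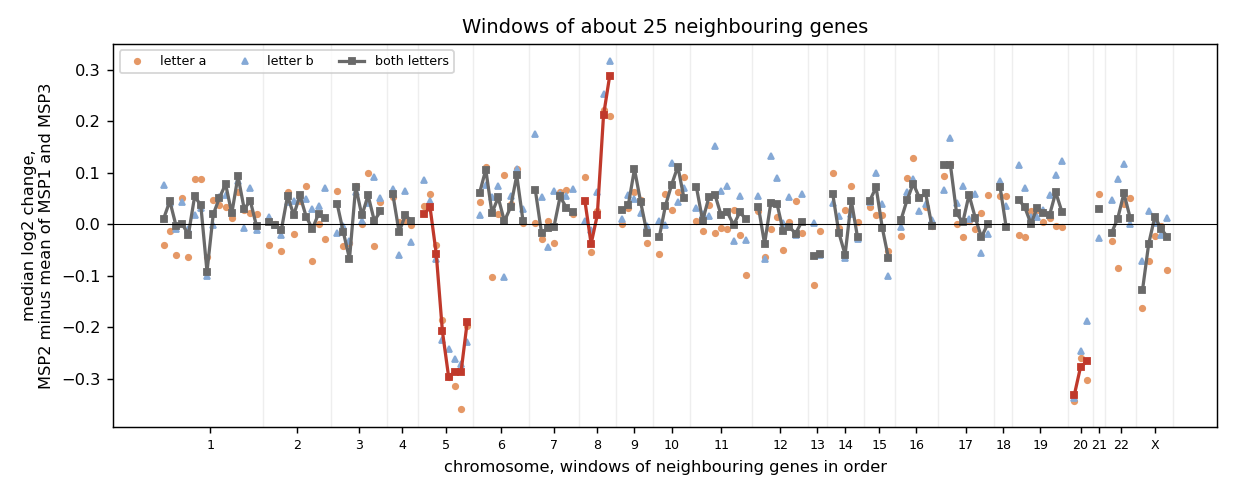
Median log2 change in MSP2 (vertical axis) of 141 windows of about 25 neighbouring genes in order along each chromosome (horizontal axis), with squares for both letters together, circles for letter a and triangles for letter b, and with chromosomes 5, 8 and 20 in red. The distal windows of chromosome 5 and all 3 windows of chromosome 20 lie between -0.190 and -0.331, and the last 2 windows of chromosome 8 at 0.211 and 0.288.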

How the data were processed

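Biotin-labelled RNA was read on 1-colour Affymetrix arrays, per the labels. The submitters' processing notes list Affymetrix Expression Console and limma, with no version, while the summarization method is not given in the sources used here. Values as deposited are linear signal intensities per probe set with nearly the same trimmed mean on each array. The authors' deposited table of comparisons with CD24hi, with log2 fold changes, mean log2 levels and p-values, per the file headers, was used only for gene symbols. It listed 16382 of 54613 probe sets, 14028 with 1 symbol, and its first part held those with small p-values against CD24hi, so named genes are no random part of the array. Symbols were updated through the RefSeq table of GRCh38.p14.

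Intensities were put on the log2 scale with no offset. The limma 3.58.1 fit (R 4.3.3) had means of MSP2, MSP1 and MSP3 plus the letter as a block over 6 arrays, with 2 residual and 4.60 prior degrees of freedom and Benjamini-Hochberg adjustment over 18506 probe sets with a geometric mean signal of 64 or more on either side. The block follows a check over these probe sets: the a minus b differences correlated at 0.70 between MSP2 and MSP1, 0.81 between MSP2 and MSP3 and 0.67 between MSP1 and MSP3. A gene is its brightest tested probe set with 1 symbol. Where an array of the lower side was under 32, it was raised to 32 and the fold is a bound.

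The members, gene lists and rules were chosen with earlier results of these data known. Genes named were the 15 widest rises and falls called and at least 2-fold outside the other arrays, 2 rises and falls per list (or its brightest member), and CD24, CD44, CDH1, CDH2, VIM, FN1 and ZEB1; other genes in the text were chosen after their values were seen. The fit was tested on simulated data. Alternatives covered the block, the arrays in the fit, quantile normalization, the filter, a floor, an intensity trend, each array left out and the mean of a gene's probe sets. The number of arrays limits the precision. All columns of the signal table matched a sample. A called gene's result is not reported here.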

Additional observations from a re-analysis of the deposited data

How the results depend on the processing

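Counts of calls depended on the processing. The 41 called genes of the naming rule kept their direction in every alternative that tested them, but several alternatives could not change it. The block, the CD24hi arrays, the filter and the trend leave each log2 change as it was in this balanced layout. The genes were also chosen by their calls in the main fit, so a direction kept with 1 array left out is no separate support. In the main comparison (434 calls), the comparison with MSP1 (485) and that with MSP3 (242), limma made 1, 10 and 1 calls without the replicate block, 0, 0 and 0 with the CD24hi arrays in the fit (unadjusted p under 0.05 in 555, 608 and 404 probe sets), 263, 271 and 103 at a minimum signal of 32, 0, 0 and 0 without a filter (unadjusted p under 0.05 in 4269, 4281 and 3895) and 726, 834 and 385 with an intensity trend. Leaving out 1 array gave 86 to 1194, 110 to 1235 and 49 to 793 calls, fewest without MSP2 a and most without MSP1 b in all 3. Probe sets at least 2-fold outside the others numbered 43 to 63 under quantile normalization and other filters, and 65 to 180 with 1 array left out, the most without MSP2 b; the block, the CD24hi arrays and the trend do not enter that count. Named genes called numbered 140, and 0 without the replicate block, with the CD24hi arrays or without a filter, 70 at a minimum signal of 32, 220 with the trend, and 28 (without MSP2 a) to 309 (without MSP1 b) with 1 array left out. Of the 41 called genes, 39 kept the call under quantile normalization, 28 at a minimum signal of 32, 31 of 31 at the higher minimum, 41 with the floor, 40 with the trend, and 0 without the block, with the CD24hi arrays or without a filter. The causes of these changes were not tested. Uncalled genes changed sign with 1 array left out: CD59 (-0.3424 to 0.0771), CDH2 (-0.0135 to 0.076), TYMS (-0.1377 to 0.0224) and ZEB1 (-4e-04 to 0.7913) without MSP2 a, CDH2 also without MSP1 a, and CD79A (-0.1296 to 0.0684) without MSP2 b, MSP1 b or MSP3 a. VIM changed sign with the mean of its probe sets (-0.0593). The alternatives for the count of named genes called and for the chromosomes were chosen after seeing the data. With 1 array left out the medians of chromosome 20 and of the distal parts of chromosomes 5 and 8 ran from -0.302 to -0.241, -0.281 to -0.248 and 0.21 to 0.256, and under quantile normalization they were -0.283, -0.245 and 0.26.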

Other observations

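The following called genes stood in none of the lists and were chosen after their values were seen. QPRT, an enzyme that makes NAD from quinolinate, had 108 and 61.5 on MSP2 and at most 17.6 on the other 4 arrays, at least 2.54-fold higher (limma adjusted p = 0.00165, from a fit to signals within the dim range; still called without MSP2 b, and under the filter without MSP2 a). AEBP1, a collagen-binding protein of mesenchymal cells, had 210 and 214 on MSP2, 73.1 and 130 on MSP1 and 9.92 and 45.9 on MSP3 (2.22 ± 0.39, adjusted p = 0.0406), with a change of 1.47 and no call without MSP2 a and of 2.96 without MSP2 b. RCAN2, an inhibitor of calcineurin, had 897 and 380 on MSP2, 125 and 69.1 on MSP1 and 269 and 125 on MSP3 (2.16 ± 0.12, adjusted p = 0.00127). GJA1, the gap junction protein connexin 43, had 2514 and 2657 on MSP2, 485 and 547 on MSP1 and 1484 and 1573 on MSP3, ordered without overlap (1.54 ± 0.11, adjusted p = 0.00165). KCNK2, a potassium channel that responds to stretch, had 165 and 102 on MSP2 and between 28.4 and 64.6 on the others (1.62 ± 0.11, adjusted p = 0.00165). ALDH1L2, a mitochondrial enzyme of folate metabolism, had 74.3 and 69.7 on MSP2 and between 26.4 and 36.6 on the others, at least 2.16-fold higher (1.25 ± 0.11, adjusted p = 0.00413), with the call lost without MSP2 a (1.16) or MSP2 b (1.33).

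DUSP4, a phosphatase that shuts off MAP kinases, had 144 and 210 on MSP2, 395 and 488 on MSP1 and 457 and 453 on MSP3 (-1.36 ± 0.14, adjusted p = 0.00634; -1.16 and not called without MSP2 a). GNG2, a G protein gamma subunit, had 98.4 and 38.7 on MSP2, 306 and 197 on MSP1 and 347 and 120 on MSP3 (-1.86 ± 0.19, adjusted p = 0.00608; not called without either MSP2 array). BCL2, which blocks apoptosis, had 35.9 and 46.4 on MSP2, 54.2 and 81.2 on MSP1 and 56.0 and 91.5 on MSP3 (-0.76 ± 0.12, adjusted p = 0.0292), a call lost without MSP2 a, MSP2 b or MSP3 a.

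The CD24hi cells give a second view of the called genes. Of the 59 lower in MSP2, 32 (54.2%) were dim in CD24hi, against 21 of the 81 higher (25.9%) and 196 of all 3942 named genes (4.97%). Of the 81 higher in MSP2, CD24hi lay above the mean of MSP1 and MSP3 in 42 (51.9%), and of the 59 lower in 12 (20.3%), against 44.5% of all named genes. CD24hi lay above MSP2 in 25 of the 81 (30.9%) and in 19 of the 59 (32.2%), against 43.6% of all named genes. Called genes were chosen by MSP2 against the mean of MSP1 and MSP3. These shares are in part set by that choice, and no leaning towards CD24hi is read from them. Set against CD24hi, chromosome 20 had a median change of 0.129 in MSP2 and 0.372 in the mean of MSP1 and MSP3, the distal part of chromosome 5 0.427 and 0.654, and the distal part of chromosome 8 -0.247 and -0.461, where all named genes had 0.097 and 0.081. In none of the 3 regions was MSP2 farther from CD24hi than the other mesenchymal cells were.

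Most of the probe sets that set MSP2 apart have no gene name here: 253 of the 434 called and 39 of the 60 that were at least 2-fold outside the others. The genes described are therefore a part of the difference.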
